A study of Mus musculus with 4 samples.

Results

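The 4 Notch receptor genes of the mouse were examined for chromatin accessibility in lymph node fibroblastic reticular cells, the stromal cells that form the reticular network of the organ. Accessible regions were made by merging the deposited 300-bp windows lying up to 100 bp apart. Each region was then given to the protein-coding RefSeq gene in which the midpoint of its best window lay, or else to the nearest such gene within 100000 bp. The best window is the one with the most counts over all libraries. By this rule 40 of 110110 regions belonged to the receptor genes: 9 to Notch1, 17 to Notch2, 12 to Notch3 and 2 to Notch4. Membership rests on position alone and used no difference between genotypes. A region near a gene is not thereby shown to act on that gene.

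Accessibility was read by ATAC-seq, in which a transposase cuts and tags open DNA. In 2 libraries the mice were Ccl19-Cre x Notch2 fl/fl (Notch2_cKO), so that floxed Notch2 can recombine in cells in which Ccl19-Cre is or was active. The other 2 libraries came from Notch2 fl/fl littermates without Cre (control). Both groups therefore carry the floxed allele, and both were female, 12 weeks old and on a C57BL/6 background. Each library pooled brachial, axillary and inguinal nodes from 6 mice, and 50000 cells sorted as BP3-high, Pdpn+, CD31- and CD45- were used. The sources used here state neither the share of cells that had lost Notch2 nor which exons are flanked by loxP sites.

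Notch receptors are single-pass membrane proteins that are cleaved when a Delta-like or Jagged ligand on a neighbouring cell binds them. The freed intracellular domain enters the nucleus, joins the DNA-binding protein RBPJ and switches on genes such as Hes1 and Heyl. Notch1 is used in T cell development and in blood vessels, Notch2 in marginal zone B cells and in splenic and intestinal dendritic cells, Notch3 mainly in vascular mural cells, and Notch4 mainly in endothelium. In lymphoid tissue, fibroblasts are best known on the ligand side of the pathway, and the receptors they carry themselves are the subject here.

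The promoter sequences are shown because 3 of the 4 genes had an accessible region at the start and the other had none. They come from RefSeq (build GRCm38.p6, the assembly that mm10 also names), run 5′ to 3′ in the direction of transcription, and hold 250 bases before and 50 after the annotated start. All 4 genes had an entry. Capitals mark GC boxes (GGGCGG, or CCGCCC on the other strand), AP-1 sites (TGANTCA, its own reverse complement) and RBPJ cores (TGGGAA, or TTCCCA on the other strand).
Notch1 (chr2:26503773-26504072, minus strand): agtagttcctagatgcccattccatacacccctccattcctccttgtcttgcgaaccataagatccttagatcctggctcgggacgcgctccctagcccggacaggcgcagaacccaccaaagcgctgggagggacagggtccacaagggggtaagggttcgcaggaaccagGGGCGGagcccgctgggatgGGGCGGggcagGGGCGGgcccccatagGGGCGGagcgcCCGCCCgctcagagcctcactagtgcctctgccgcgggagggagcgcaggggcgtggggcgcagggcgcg
Notch2 (chr3:98013288-98013587, plus strand): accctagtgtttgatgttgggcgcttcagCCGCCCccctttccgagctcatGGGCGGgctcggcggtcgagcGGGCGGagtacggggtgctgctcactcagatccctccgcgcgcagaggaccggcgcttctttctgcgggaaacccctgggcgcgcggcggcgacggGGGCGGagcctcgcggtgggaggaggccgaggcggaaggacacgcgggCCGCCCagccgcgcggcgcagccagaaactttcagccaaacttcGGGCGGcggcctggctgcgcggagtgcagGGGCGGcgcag
Notch3 (chr17:32166841-32167140, minus strand): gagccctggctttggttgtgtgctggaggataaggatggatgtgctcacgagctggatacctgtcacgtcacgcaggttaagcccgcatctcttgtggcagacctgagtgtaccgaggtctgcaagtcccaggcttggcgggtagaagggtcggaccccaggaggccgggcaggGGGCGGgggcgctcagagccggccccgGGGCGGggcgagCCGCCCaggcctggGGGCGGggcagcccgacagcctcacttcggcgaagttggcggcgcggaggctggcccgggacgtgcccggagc
Notch4 (chr17:34564045-34564344, plus strand): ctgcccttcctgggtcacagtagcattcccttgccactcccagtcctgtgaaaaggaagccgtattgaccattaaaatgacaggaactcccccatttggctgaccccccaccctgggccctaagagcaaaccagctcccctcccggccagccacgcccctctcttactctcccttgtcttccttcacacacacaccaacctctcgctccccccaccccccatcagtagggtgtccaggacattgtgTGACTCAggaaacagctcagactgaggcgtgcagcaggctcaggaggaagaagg
The Notch1, Notch2 and Notch3 promoters held 5, 7 and 4 GC boxes and no AP-1 site, while the Notch4 promoter held 0 GC boxes and 1 AP-1 site. No RBPJ core was in these letters in any of the 4. Among 21262 promoters of protein-coding genes of the same length, 46.2% held a GC box, 6.99% an AP-1 site and 24.5% an RBPJ core. The number of CpG dinucleotides was 23 in Notch1, 41 in Notch2 and 25 in Notch3, and 5 in Notch4. Of all promoters with 15 or more CpG, 89.3% had a region whose best window lay within 1000 bp of the start, against 16.1% of those with 0 to 5 CpG. The receptor genes thus fell with their promoter class: the CpG-rich starts of Notch1, Notch2 and Notch3 lay entirely inside a region, and the CpG-poor start of Notch4 had no region within 1000 bp. A motif match describes letters and is not a binding site.

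Summed over the best windows of all regions, Notch2_cKO replicates 1 and 2 held 30260067 and 12340742 counts, and control replicates 1 and 2 held 23629588 and 25740366. Of these, 10753 and 4148 counts in Notch2_cKO and 7689 and 9008 in control lay at the receptor genes. The shallowest library, Notch2_cKO replicate 2, had a median of 59 counts per receptor region. Levels are given as normalized CPM of the best window, that is, counts scaled to 1000000 per library after a loess trend on mean level had been removed. All windows have the same length, so levels of different genes can be set side by side. Changes are log2 of Notch2_cKO over control from edgeR's quasi-likelihood test fitted on all regions, with an approximate standard error (SE), and pass at a Benjamini-Hochberg adjusted p under 0.05. Control replicate 2 held 221 counts at the Y-linked gene Ddx3y and 65 at Kdm5d, where the other 3 libraries held at most 1, although every pool is labelled female. The part of the Y-linked counts in any result was not tested.

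The sorted population was checked against marker genes. Of 7 reticular fibroblast genes with a listed start, 4 had a region there: Pdpn, Ltbr, Col3a1 and Cxcl13. The start of Pdpn had 13.7 ± 0.0837 CPM in Notch2_cKO and 11.9 ± 1.63 CPM in control (SD, n = 2 each). Pdgfra, also a fibroblast gene, had 13 regions but none at its start. None of the 5 leukocyte genes with a listed start (Ptprc, Cd3e, Itgam, Cd79a and Itgax) had a region there. Starts of 3 blood endothelial genes (Kdr, Tek and Egfl7), 2 lymphatic endothelial genes (Prox1 and Flt4) and 6 mural cell genes were accessible, Notch3 among the mural ones. No region that was analysed here was assigned to Ccl19 or Ccl21a, so nothing is said of their accessibility.

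Of the 40 receptor regions, 6 were higher and 7 lower in Notch2_cKO and 27 did not pass. That is 32.5% of them, beside 23.6% of all regions tested (12.5% higher and 11.2% lower). The genes differed in which way their called regions went: at Notch1 0 were higher and 4 lower, at Notch2 5 and 1, at Notch3 1 and 2, and at Notch4 0 and 0. Whether the genes differ in this was not tested. The median log2 change was -0.35 at Notch1, 0.19 at Notch2, 0.11 at Notch3 and -0.20 at Notch4, against 0.01 over all regions. In 28 of the 40 regions both Notch2_cKO libraries lay on one side of both controls (70.0%, against 59.9% of all regions), above them in 16 and below them in 12 (30.4% and 29.5% of all regions). With 2 libraries against 2, an exact two-sided permutation test of 1 region cannot give a p below 0.333, so every call rests on the spread that edgeR shares across regions. The 12 regions whose groups overlapped had log2 changes between -0.24 and 0.28. Without control replicate 1 the counts over the 4 genes were 2 higher and 6 lower, and without control replicate 2 they were 3 and 4. Without Notch2_cKO replicate 1 they were 3 and 8, and without Notch2_cKO replicate 2 they were 8 and 7. With DESeq2 they were 2 and 3. How far the share called lay from that of all regions depended on the setting. The share was 12.5% of receptor regions against 11.7% of all regions with DESeq2, and 32.5% against 21.8% with limma. With TMM scaling it was 35% against 25.3%. Some calls at each of Notch1, Notch2 and Notch3 were lost when a control library was left out, as given below.

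**Figure D1:**
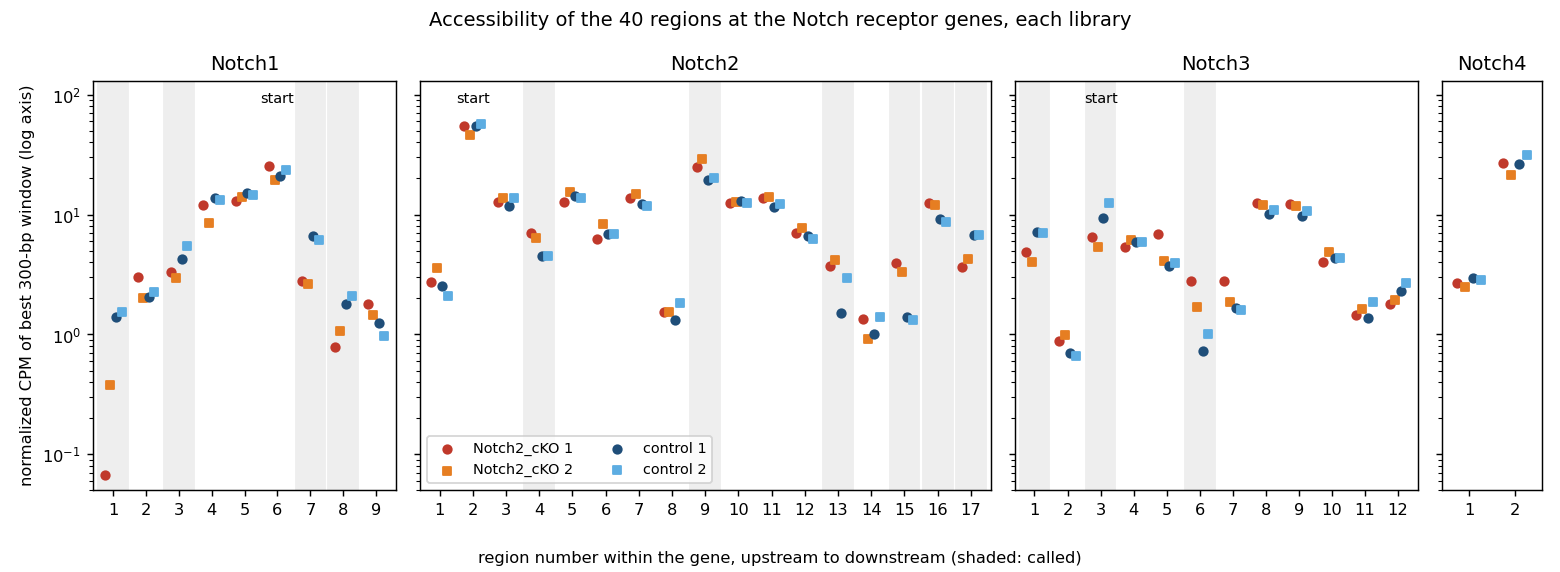
Normalized CPM of the best 300-bp window (log axis) for each of the 40 regions, numbered from upstream to downstream within each gene, with 1 point per library (red and orange, Notch2_cKO 1 and 2; dark and light blue, control 1 and 2). Grey bands mark the 13 regions that passed, and the start of Notch2 stands above all other regions of the 4 genes in each library.

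Notch2, the targeted gene, occupies chromosome 3 from 98013538 to 98150367 on the plus strand. Its start region (98013151 to 98013800) was the most accessible of all 40, with 55.2 and 46.2 CPM in Notch2_cKO and 55.3 and 57.5 CPM in control. The change of -0.14 (SE 0.10) did not pass (edgeR adjusted p = 0.344), and Notch2_cKO replicate 1 lay next to the controls while replicate 2 lay lower. Without Notch2_cKO replicate 1 the start region passed as lower (log2 -0.28, edgeR adjusted p = 0.018), and with TMM scaling its change was -0.30 (edgeR adjusted p = 0.0503). The last region inside the gene ended at 98108950, so the final 41417 bp up to the gene end held no region that was analysed here. As the sources used here do not state which exons are floxed, these values do not check the deletion.

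Inside Notch2, 15 regions lay 11162 bp or more after the start. The strongest of them, region 9, 43562 bp after the start (98056751 to 98057450), had 25.1 and 28.9 CPM in Notch2_cKO, against 19.3 and 20.3 CPM in control, and was higher (log2 0.44, SE 0.13, edgeR adjusted p = 0.0149). The largest rise was at region 15, 88312 bp after the start (98101601 to 98102200), with 3.94 and 3.32 CPM in Notch2_cKO and 1.41 and 1.32 CPM in control (log2 1.44, SE 0.23, edgeR adjusted p = 0.000153). Both Notch2_cKO libraries were above both controls in all 7 overlapping windows of that region, and it passed in every alternative tried.
Region 17, 95012 bp after the start (98108201 to 98108950) went the other way, with 3.66 and 4.25 CPM in Notch2_cKO, against 6.72 and 6.72 CPM in control (log2 -0.79, SE 0.18, edgeR adjusted p = 0.00262). Its neighbour, region 16, 93362 bp after the start, was higher, with 12.4 and 12.0 CPM in Notch2_cKO and 9.13 and 8.64 CPM in control (log2 0.46, SE 0.15, edgeR adjusted p = 0.0263). Opposite changes thus lay side by side at the distal end of the measured part of the gene. With the replicate number as a block, that neighbour did not pass (log2 0.46, edgeR adjusted p = 0.0713).

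The remaining higher regions of Notch2 lay 12612 and 76312 bp after the start. The first (98025951 to 98026450) had 6.99 and 6.35 CPM in Notch2_cKO, against 4.54 and 4.54 CPM in control (log2 0.57, SE 0.17, edgeR adjusted p = 0.0194). At the other (98089601 to 98090150) the levels were 3.73 and 4.17 CPM in Notch2_cKO and 1.50 and 2.98 CPM in control (log2 0.78, SE 0.25, edgeR adjusted p = 0.0309). The controls there differed from each other by 0.99 on the log2 scale, more than the groups did. Without control replicate 1 its change was 0.38 (edgeR adjusted p = 0.41) and without control replicate 2 it was 1.37 (edgeR adjusted p = 0.000517). The region at 12612 bp did not pass without control replicate 1, without control replicate 2 or without Notch2_cKO replicate 1 (edgeR adjusted p = 0.116, 0.131 and 0.134), and neither did the one at 93362 bp (0.137, 0.253 and 0.0769). The strongest one, at 43562 bp, did not pass without control replicate 1 or without control replicate 2 (edgeR adjusted p = 0.182 and 0.105). In regions 7, 11 and 12 both Notch2_cKO libraries lay above both controls without a call (log2 0.24, 0.23 and 0.19, edgeR adjusted p = 0.246, 0.264 and 0.452). The upstream region 6888 bp before the start had 2.76 and 3.55 CPM in Notch2_cKO and 2.56 and 2.11 CPM in control and did not pass (log2 0.39, SE 0.23, edgeR adjusted p = 0.239).

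**Figure D2:**
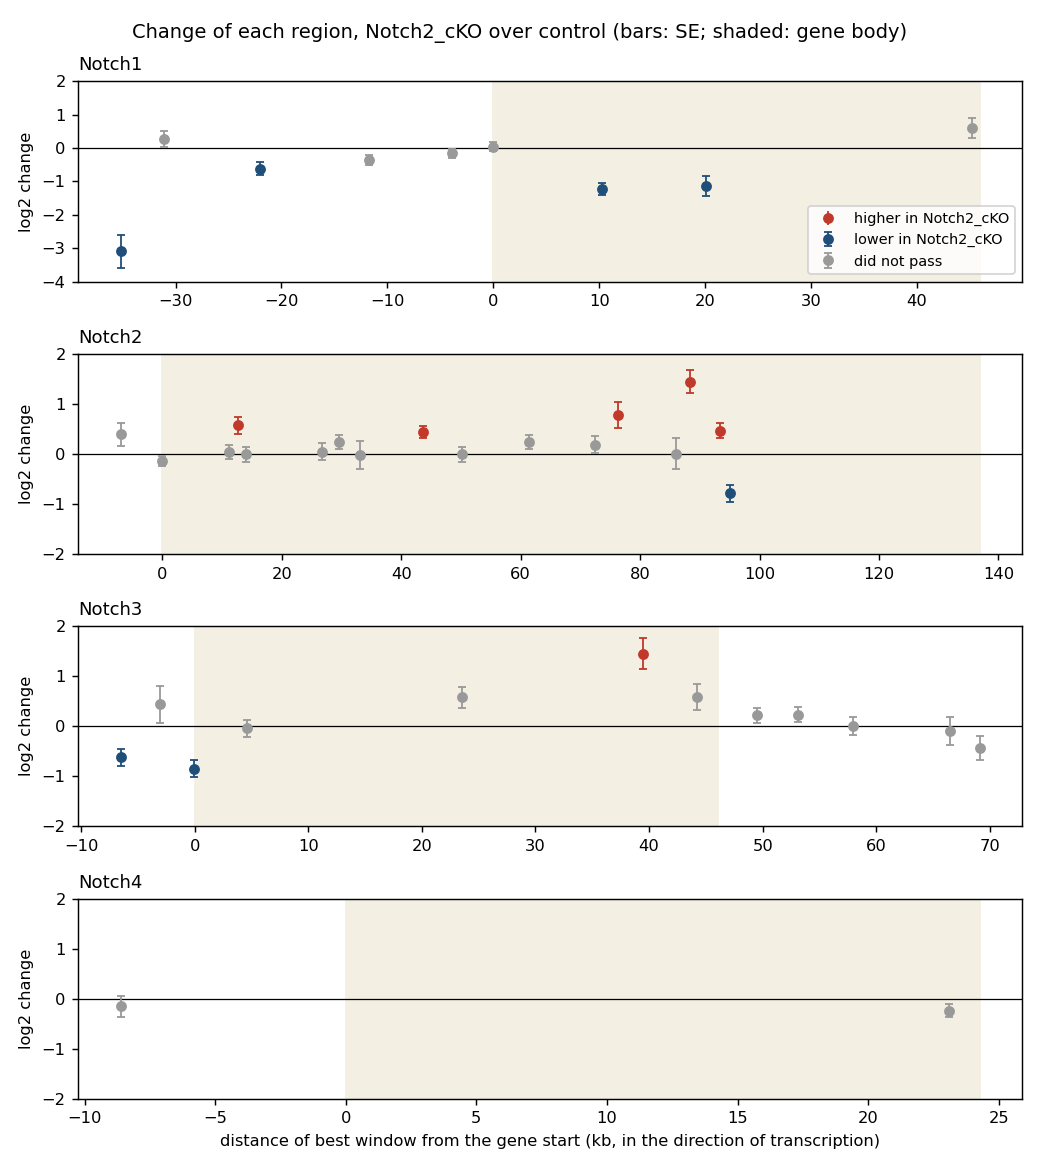
Log2 change of each region (Notch2_cKO over control) with its SE against the distance of its best window from the gene start in kb, 1 panel per gene, the gene body shaded. Called regions of Notch1 are all below 0, those of Notch2 lie inside the gene and are mostly above 0, and the Notch3 regions at and before the start lie opposite to the one near the gene end.

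Notch1 (chromosome 2, 26457902 to 26503822, minus strand) had 3 regions inside the gene, 1 at the start and 5 upstream, on the side of its neighbour Egfl7. The start region (26503551 to 26504150) had 25.6 and 19.4 CPM in Notch2_cKO, against 21.1 and 23.6 CPM in control. The groups overlapped and the change of 0.03 (SE 0.14) did not pass (edgeR adjusted p = 0.892). Its sign depended on single libraries, being -0.06 without control replicate 1 and -0.19 without Notch2_cKO replicate 1. The approximate 95% interval of the change, -0.24 to 0.31, leaves room for a change of about that size either way.

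Away from the start, 4 of the other 8 Notch1 regions were lower in Notch2_cKO. At region 7, 10222 bp after the start (26493301 to 26493850) the levels were 2.78 and 2.63 CPM in Notch2_cKO, against 6.63 and 6.17 CPM in control. The counts behind them were 86 and 34 in Notch2_cKO and 149 and 156 in control. This region fell by 1.23 on the log2 scale (SE 0.19, edgeR adjusted p = 7.79e-05) and passed in every alternative. Both Notch2_cKO libraries were below both controls in all 6 of its overlapping windows, whose log2 ratios ran from -1.34 to -1.16. A second region inside the gene, 20072 bp after the start (26483501 to 26484000), had 0.792 and 1.08 CPM in Notch2_cKO and 1.80 and 2.10 CPM in control (log2 -1.13, SE 0.30, edgeR adjusted p = 0.0085). It did not pass without control replicate 2 (log2 -0.95, edgeR adjusted p = 0.0838) or without Notch2_cKO replicate 1 (log2 -0.88, edgeR adjusted p = 0.134).

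Region 1, the farthest upstream, 35128 bp before the start (26538551 to 26539100), was nearly empty in Notch2_cKO. It held 2 and 5 counts in Notch2_cKO and 34 and 37 counts in control, which corresponds to 0.0677 and 0.38 CPM in Notch2_cKO and 1.40 and 1.54 CPM in control. Summed within each group and scaled for depth, the ratio of Notch2_cKO to control was 0.112, with an exact 95% counting interval of 0.0433 to 0.242 that covers counting error only. The fitted change was -3.10 (SE 0.51, edgeR adjusted p = 0.000155), larger in size than at all but 0.0699% of regions. By the mean of all 4 libraries, the nearly empty ones included, its level was above 6.97% of regions. Without Notch2_cKO replicate 1 the change was -1.99 (edgeR adjusted p = 0.00545). A region 22028 bp before the start (26525601 to 26526200) had 3.33 and 2.93 CPM in Notch2_cKO, against 4.23 and 5.51 CPM in control (log2 -0.62, SE 0.20, edgeR adjusted p = 0.0309). That call was lost without control replicate 2 (log2 -0.41, edgeR adjusted p = 0.36) and without Notch2_cKO replicate 1 (log2 -0.72, edgeR adjusted p = 0.0528), and also with the replicate number as a block (log2 -0.59, edgeR adjusted p = 0.0506) and with library totals as the only scaling (edgeR adjusted p = 0.0666).

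The stronger upstream regions of Notch1 did not pass. At 11728 bp before the start (26515251 to 26515800) the levels were 12.0 and 8.55 CPM in Notch2_cKO and 13.7 and 13.2 CPM in control (log2 -0.35, SE 0.16, edgeR adjusted p = 0.119). Notch2_cKO replicate 2 was the low library there, and the region passed without Notch2_cKO replicate 1 (log2 -0.64, edgeR adjusted p = 0.00702). At 3878 bp before the start (26507401 to 26508050) they were 12.9 and 13.9 CPM in Notch2_cKO and 15.3 and 14.5 CPM in control (log2 -0.16, SE 0.14, edgeR adjusted p = 0.453). The region 698 bp from the gene end (26458251 to 26458800) was the only Notch1 region with both Notch2_cKO libraries above both controls, with 1.78 and 1.46 CPM in Notch2_cKO against 1.24 and 0.974 CPM in control, and did not pass (log2 0.60, SE 0.29, edgeR adjusted p = 0.151). The start, which did not pass, and the 2 nearest upstream regions together made up 35.6%, 22.4% and 18.9% of the level summed over the gene, while the 4 called regions made up 7.23% or less each.

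**Figure D3:**
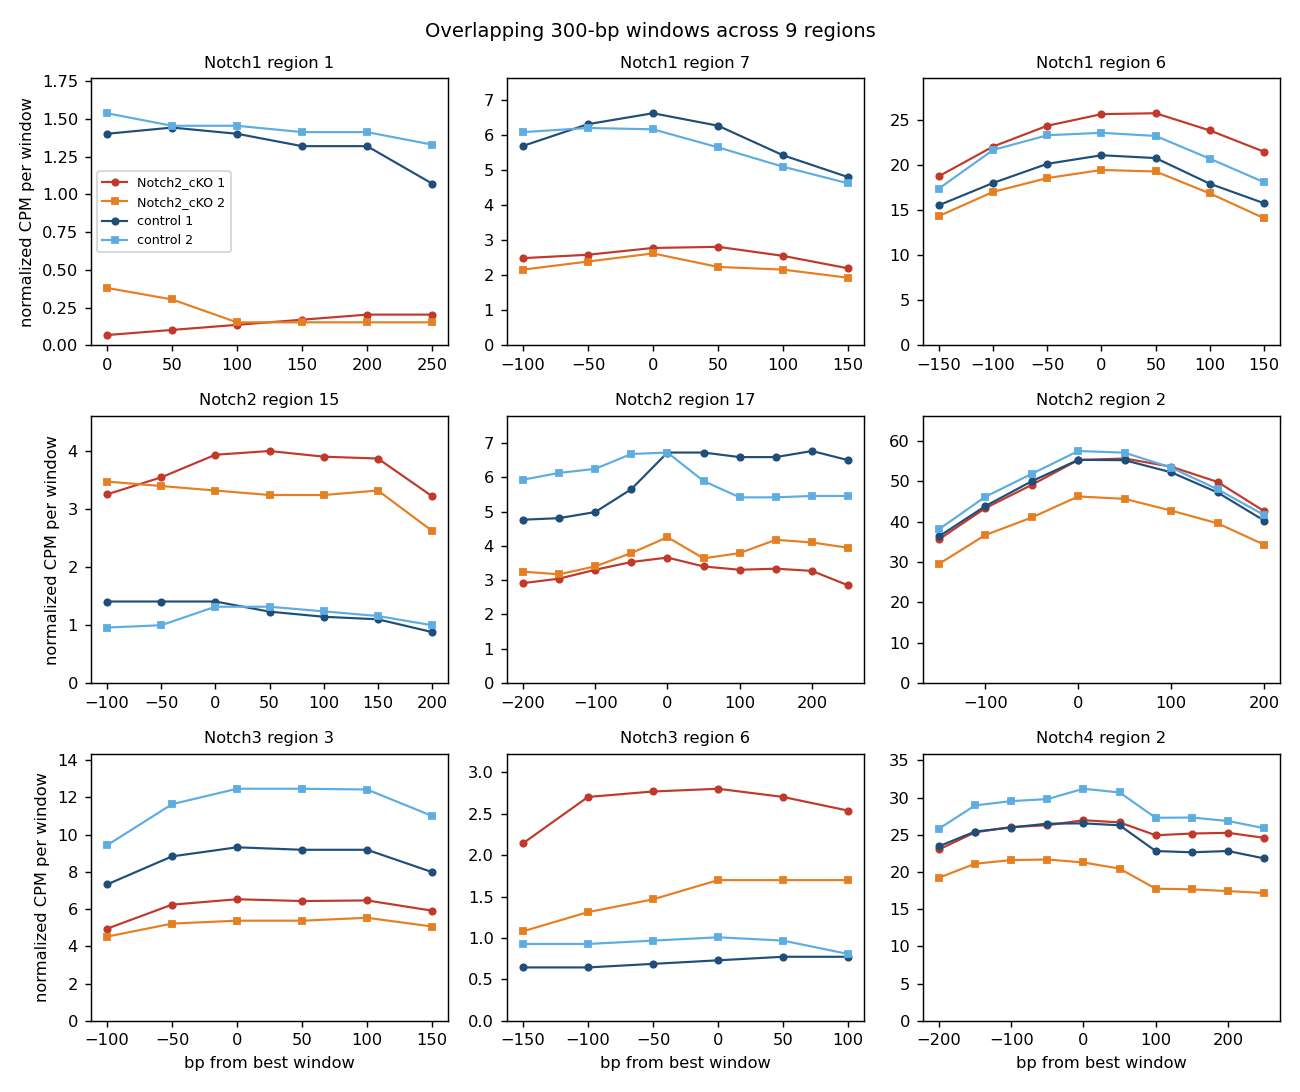
Normalized CPM of each overlapping 300-bp window across 9 regions (position in bp from the best window, in the direction of transcription), 1 line per library in the same colours. In Notch1 region 7 and Notch3 region 3 both Notch2_cKO lines run below both control lines in all 6 windows, and in Notch2 region 15 they run above in all 7.

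Notch3 (chromosome 17, 32120820 to 32166896, minus strand) was, with all libraries, the only receptor gene with a called change at its start. The start region (32166651 to 32167200), which contains the whole promoter sequence shown above, had 6.53 and 5.37 CPM in Notch2_cKO, against 9.32 and 12.5 CPM in control. It fell by 0.84 on the log2 scale (SE 0.17, edgeR adjusted p = 0.00139), a level 0.557 times that of control, and passed in the 19 alternatives that kept it (it lies outside the gene body, so 1 setting left it out). Both Notch2_cKO libraries were below both controls in all 6 windows, and the controls differed from each other more than the Notch2_cKO libraries did. Among all 10496 regions at starts of protein-coding genes 3.58% were called lower and 5.07% higher. A region 6460 bp before the start (32173051 to 32173650) was also lower, with 4.92 and 4.03 CPM in Notch2_cKO and 7.12 and 6.99 CPM in control (log2 -0.62, SE 0.17, edgeR adjusted p = 0.0124). It did not pass without control replicate 1 (edgeR adjusted p = 0.0576) or without control replicate 2 (edgeR adjusted p = 0.0522). Between these lay a weak region 3010 bp before the start, with 0.888 and 0.985 CPM in Notch2_cKO and 0.695 and 0.666 CPM in control, which did not pass (log2 0.44, SE 0.36, edgeR adjusted p = 0.426).

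In the far part of the Notch3 gene the values leaned the other way. At region 6, 39490 bp after the start (32127151 to 32127700) there were 85 and 22 counts in Notch2_cKO and 17 and 25 in control, or 2.80 and 1.70 CPM in Notch2_cKO and 0.73 and 1.01 CPM in control. This region was higher (log2 1.45, SE 0.31, edgeR adjusted p = 0.0016). Notch2_cKO replicate 1 was the high library, and without it the region did not pass (log2 0.87, edgeR adjusted p = 0.147). The region 23490 bp after the start (32143051 to 32143700) had 6.86 and 4.09 CPM in Notch2_cKO and 3.74 and 3.96 CPM in control (log2 0.58, SE 0.21, edgeR adjusted p = 0.0501). It passed with TMM scaling (edgeR adjusted p = 0.0314) and not without Notch2_cKO replicate 1 (log2 0.10, edgeR adjusted p = 0.857), since replicate 2 lay close to the controls. The region 1880 bp before the gene end had 2.78 and 1.85 CPM in Notch2_cKO and 1.65 and 1.60 CPM in control (log2 0.58, SE 0.26, edgeR adjusted p = 0.109). In all 3 regions Notch2_cKO replicate 1 was the highest library. Replicate 2 lay above both controls in each, but near them in 2 of the regions and farther from them in region 6.

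Beyond the end of Notch3 lay 5 regions, none of which passed. The strongest pair of the gene, 3420 and 7070 bp past its end, had 12.5 and 11.9 CPM in Notch2_cKO and 10.1 and 10.96 CPM in control, and 12.3 and 11.8 CPM in Notch2_cKO and 9.70 and 10.8 CPM in control. Their changes were 0.22 (SE 0.14) and 0.23 (SE 0.15), with edgeR adjusted p = 0.311 and 0.272. In each pair both Notch2_cKO libraries were above both controls, and the difference was within about 2 SE. The farthest region, 23020 bp past the end, had 1.79 and 1.93 CPM in Notch2_cKO and 2.31 and 2.68 CPM in control (log2 -0.44, SE 0.24, edgeR adjusted p = 0.201).

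Notch4 (chromosome 17, 34564286 to 34588543, plus strand) had 2 regions, neither of which passed. The strong one, region 2 (34587051 to 34587800), lay 23105 bp after the start and 1143 bp before the gene end, on the side of the neighbouring gene Gpsm3. It had 27.0 and 21.3 CPM in Notch2_cKO, against 26.5 and 31.2 CPM in control, a level above 91.2% of all regions (log2 -0.24, SE 0.13, edgeR adjusted p = 0.204). Notch2_cKO replicate 1 lay between the controls and replicate 2 below them. Without Notch2_cKO replicate 1 the region passed as lower (log2 -0.43, edgeR adjusted p = 0.00759) and without Notch2_cKO replicate 2 it did not (log2 -0.08, edgeR adjusted p = 0.623). The weak one (34555351 to 34556000), 8595 bp before the start, had 2.70 and 2.47 CPM in Notch2_cKO and 2.95 and 2.87 CPM in control (log2 -0.15, SE 0.21, edgeR adjusted p = 0.663).

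By level the receptor genes kept nearly the same order in all libraries. At the start, Notch2 was above Notch1 and Notch1 above Notch3 in each of the 4 libraries, with no overlap between genes: the highest Notch1 value was 25.6 CPM and the lowest Notch2 value 46.2 CPM, both in Notch2_cKO. Summed over the best windows of a gene, Notch2 had 195.7 and 198.2 CPM in Notch2_cKO and 179.3 and 184.6 CPM in control, above the others in every library. Notch1 had 62.3 and 52.4 CPM in Notch2_cKO, against 67.4 and 69.9 CPM in control. Notch3 had 62.2 and 56.3 CPM in Notch2_cKO, against 56.9 and 63.2 CPM in control. The Notch1 and Notch3 totals thus overlapped across libraries, and their order was reversed in Notch2_cKO replicate 2. Notch4 was lowest, at 29.7 and 23.8 CPM in Notch2_cKO and 29.5 and 34.1 CPM in control. A total grows with the number of regions: per region, the mean level was 6.37 CPM in Notch2_cKO and 7.63 CPM in control at Notch1, 11.6 in Notch2_cKO and 10.7 in control at Notch2, 4.94 in Notch2_cKO and 5.01 in control at Notch3, and 13.3 in Notch2_cKO and 15.9 in control at Notch4. As log2 ratios of Notch2_cKO over control the totals were -0.26 for Notch1, 0.11 for Notch2, -0.02 for Notch3 and -0.25 for Notch4, with no test. The sign for Notch3 depended on single libraries, being 0.05 without control replicate 2 and -0.10 without control replicate 1, and it was 0.07 with library totals as the only scaling. With regions inside the gene bodies only, the ratios were -0.85 for Notch1, 0.22 for Notch2 and 0.37 for Notch3. That setting left out the regions at starts, upstream and beyond the gene ends. For Notch1 it kept only regions 7, 8 and 9, which held 7.23%, 2.29% and 2.17% of the level summed over the gene.

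**Figure D4:**
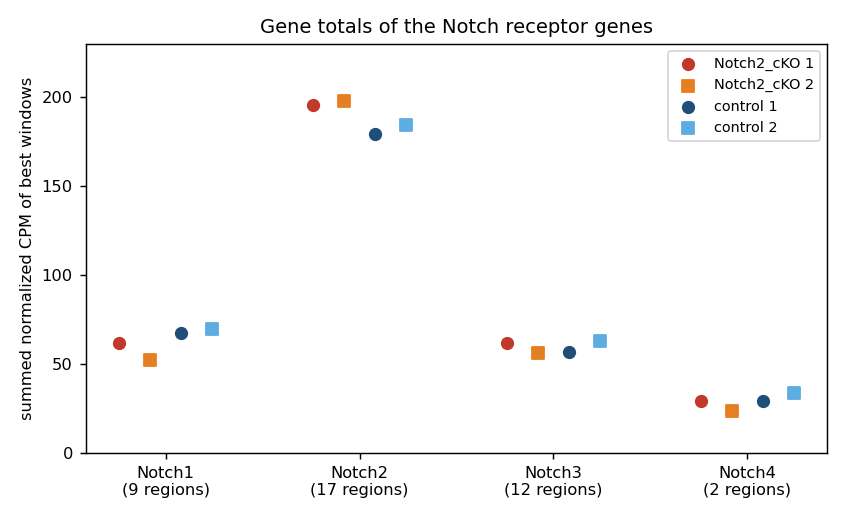
Level summed over the best windows of each receptor gene (normalized CPM), 1 point per library, Notch2_cKO left of control. Notch2 totals lie between 179.3 and 198.2 CPM, Notch1 and Notch3 totals overlap, and Notch4 totals are the lowest.

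Libraries of one group varied more in Notch2_cKO than in control at these regions, the median absolute log2 difference between replicates being 0.21 in Notch2_cKO and 0.09 in control. Over all regions it was 0.23 in Notch2_cKO and 0.18 in control. By position, 23 regions lay inside the genes, with 6 higher and 3 lower, and 9 upstream, with 0 higher and 3 lower. Away from gene starts, 13.3% of all regions were higher and 12% lower. At gene starts the shares were 5.07% and 3.58%. Whether the calls differ by position was not tested. Of the 3 start regions 1 was lower, and none of the 5 regions beyond Notch3 passed. Region widths ran from 300 to 750 bp, against a median of 600 bp over all regions.

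Other genes of the pathway were counted in the same fit, ordered by their role. Receptor processing covers Furin, which cuts the receptor precursor, the ADAM proteases, the gamma-secretase subunits and the glycosyltransferases Pofut1 and Poglut1. Of its 43 regions 1 was higher and 4 lower (11.6% called, median log2 change 0.02). The share called among all regions was 23.6%, with 12.5% higher and 11.2% lower. Inside Pofut1, whose enzyme adds fucose to receptor repeats, a region had 3.91 and 4.25 CPM in Notch2_cKO, against 0.878 and 0.877 CPM in control (log2 2.19, SE 0.25, edgeR adjusted p = 3.36e-06). Inside Adam17, a protease that can shed the receptor ectodomain, a region had 2.39 and 2.70 CPM in Notch2_cKO, against 5.65 and 5.98 CPM in control (log2 -1.22, SE 0.19, edgeR adjusted p = 0.000122). The 4 lower regions lay at Adam17 and Adam10, and no region at Furin or Poglut1 passed.

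Genes of receptor endocytosis and turnover had 8 higher and 6 lower of 62 regions (22.6% called, median log2 change -0.06). That is close to the 23.6% of all regions. A region inside Itch, a ubiquitin ligase, was higher, with 4.83 and 4.79 CPM in Notch2_cKO and 1.46 and 1.35 CPM in control (log2 1.78, SE 0.22, edgeR adjusted p = 8.32e-06). A region inside Fbxw7, whose product marks the cleaved receptor for degradation, was lower, with 2.07 and 3.01 CPM in Notch2_cKO and 6.72 and 4.99 CPM in control (log2 -1.28, SE 0.22, edgeR adjusted p = 0.00029). At Fbxw7 as a whole 1 region was higher and 3 lower. Ligand and Fringe genes had 4 higher and 12 lower of 53 regions (30.2% called, median log2 change -0.01), 6 of the lower ones at Dlk1. The pair of smallest p were higher, at Lfng (log2 1.16, SE 0.15) and 10554 bp from Dll1 (log2 2.06, SE 0.30). At Dll1 as a whole 1 of 11 regions was higher and 4 were lower.

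Nuclear partners had 19 higher and 17 lower of 149 regions (24.2% called, median log2 change -0.01). That is close to the 23.6% of all regions, of which 12.5% were higher and 11.2% lower. Inside Kat2b, an acetyltransferase that works with the receptor complex, a region had 6.31 and 5.79 CPM in Notch2_cKO, against 1.24 and 0.952 CPM in control (log2 2.48, SE 0.23, edgeR adjusted p = 3.00e-07). A region 64879 bp from Rbpj was higher (log2 1.85, SE 0.17), while of the 26 regions of Rbpj it was the only higher one and 5 were lower. Target genes had 3 higher and 16 lower of 45 regions (42.2% called, median log2 change -0.24). Those of smallest p lay inside Heyl (log2 -3.03, SE 0.26) and 36957 bp from Hes1 (log2 -1.60, SE 0.15). At Hes1 as a whole 3 of 21 regions were higher and 7 lower. These lists are described by counts only, and no list was tested against other regions. Without control replicate 2 the 5 lists together had 21 higher and 34 lower regions, in place of 35 and 55 with all libraries.

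**Figure D5:**
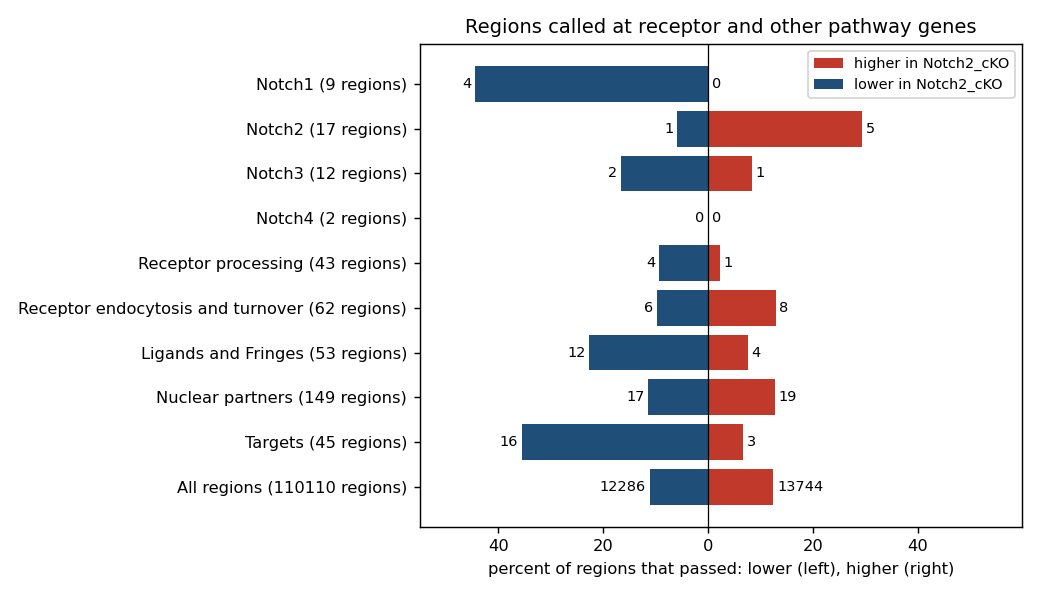
Percent of regions that passed, lower to the left and higher to the right, at each receptor gene, in 5 pathway lists and over all regions, with the number of called regions at each bar. Notch1 and the target genes have the longest bars to the left and Notch2 the longest to the right, on 9, 45 and 17 regions.

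Markers of the cells in which Notch1, Notch3 and Notch4 are best known were counted beside them. Blood endothelial genes had 12 higher and 4 lower of 66 regions (24.2% called). Over all regions 23.6% were called, 12.5% higher and 11.2% lower. The summed level of the blood endothelial genes was 390.8 and 372.6 CPM in Notch2_cKO, against 326.4 and 320.9 CPM in control. Their median log2 change was -0.02, and 5 of the 12 higher regions lay at Tek. The start of Tek, an endothelial receptor, was higher, with 23.7 and 26.3 CPM in Notch2_cKO and 15.7 and 14.01 CPM in control (log2 0.74, SE 0.13, edgeR adjusted p = 0.00035), and the starts of Kdr (log2 -0.04) and Egfl7 (log2 0.22) did not pass. Lymphatic endothelial genes had 0 higher and 8 lower of 52 regions (15.4% called), with 234.3 and 251.8 CPM in Notch2_cKO and 289.4 and 276.4 CPM in control. Mural cell genes other than Notch3 had 4 higher and 7 lower of 66 regions (16.7% called), with 613.0 and 667.3 CPM in Notch2_cKO and 647.9 and 630.2 CPM in control. Among their starts, that of Acta2, smooth muscle actin, was lower, with 10.2 and 12.6 CPM in Notch2_cKO and 16.9 and 14.5 CPM in control (log2 -0.48, SE 0.15, edgeR adjusted p = 0.0261). The other mural starts with a region did not pass and went both ways. They were Rgs5 (log2 0.02, SE 0.15, edgeR adjusted p = 0.957), Cspg4 (log2 -0.49, edgeR adjusted p = 0.0678), Kcnj8 (log2 0.10, edgeR adjusted p = 0.441) and Cnn1 (log2 0.56, edgeR adjusted p = 0.072). Leukocyte genes had 13 regions, none of which passed. The part of any such cells in the changes at the receptor genes was not tested. In a bulk sample, fewer cells with an open region and a less open region in each cell cannot be told apart.

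Around the receptor genes, most regions within 100000 bp that belong to other genes were without a call. The same holds for regions in general, of which 23.6% were called. There were 2 higher and 1 lower of 16 around Notch1, 3 and 0 of 20 around Notch2, 3 and 2 of 13 around Notch3, and 3 and 0 of 19 around Notch4. Of the 7 regions around Notch1 assigned to its upstream neighbour Egfl7, an endothelial gene, 1 was lower and 6 did not pass. Their median log2 change was -0.17.

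Genes with at least 5 regions were ranked by how close their 4 library totals lay to those of each receptor gene, as the Euclidean distance of log2 totals centred over the 4 libraries. The closest to Notch1 were Batf, Pds5a and Niban2 (distances 0.011, 0.0171 and 0.0228), and to Notch2 Adamtsl3, Bbs10 and Mtmr7 (0.0094, 0.0159 and 0.017). Closest to Notch3 were Tfam, Cul1 and Trp53rkb (0.021, 0.0233 and 0.0269), and to Notch4 Gm3667, Pcbp1 and Fam102a (0.0247, 0.0358 and 0.0459). With 4 libraries such closeness is common: of 6439 genes, 766 lay within 0.1 of Notch2, 326 within 0.1 of Notch3 and 83 within 0.1 of Notch1, and 24 of 6440 lay within 0.1 of Notch4. The names are a description of these libraries.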

How the data were processed

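Per the labels, each library came from a separate pool of 6 mice, so the spread behind the p-values is one between pools. For each region that spread is partly borrowed from other regions by edgeR. The submitters' processing notes name Bowtie2 2.4.5, build mm10, cutadapt, Trim Galore 0.6.7, deepTools, Picard 2.27.5 and SAMtools 1.14. The deposited table holds whole-number counts of 678058 overlapping windows (300 bp, step 50 bp). The labels call it loess normalized with csaw, but the deposited counts were found unscaled, so loess offsets (span 0.3) were computed here. The peak caller and any shift of reads for the transposase were not stated.

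Merging across gaps of up to 100 bp gave 110110 regions, of which 95424 fell to a protein-coding gene. The edgeR fit had genotype as its term and all 4 libraries. SE is the absolute log2 change divided by the square root of F, and approximate 95% intervals are 1.96 SE. Counting intervals cover counting error only. Fits were made with edgeR 4.0.16 in R 4.3.3, and the alternatives with DESeq2 1.42.0 and limma 3.58.1. Gene bounds are RefSeq's (GRCm38.p6). Introns and exons were not told apart.

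Members and lists were chosen with earlier results of these data known. Named with full values were each receptor gene's start region, its strongest region and its called regions, up to 2 called regions of smallest p per pathway list, and the 3 most alike genes. Further receptor regions were described for completeness. The alternatives were other scalings (TMM, median, library totals), DESeq2, limma, other windows, merging, distances and thresholds, the replicate number as a block, and leaving out each library.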

Additional observations from a re-analysis of the deposited data

How the results depend on the processing

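All 13 called receptor regions kept their direction in the alternatives that held them (17 to 20 each), and 4 passed in each of these: Notch1 regions 1 (17) and 7 (20), Notch2 region 15 (20) and Notch3 region 3 (19). Of the 27 others, 5 passed in at least 1 alternative. With all libraries there were 6 higher and 7 lower receptor regions, 35 and 55 in the pathway lists and 13744 and 12286 overall. DESeq2 gave 2 and 3, 19 and 32, and 7381 and 5470. At an adjusted p of 0.01 there were 2 higher and 5 lower receptor regions, 21 and 35 in the lists and 8527 and 7013 overall. With genes within 10000 bp the lists had 31 lower. With gene bodies only there were 6 higher and 3 lower receptor regions and 17 and 25 in the lists, and gene totals were -0.85 for Notch1, 0.22 for Notch2 and 0.37 for Notch3. The Notch1 total then rested on 3 regions, without its start. With TMM scaling the Notch2 total was 0.0797. Leaving out each library gave 2 to 8 higher and 4 to 8 lower receptor regions, 21 to 44 and 34 to 59 in the lists, and 8939 to 15497 and 7993 to 14732 overall. It moved the Notch1 start (region 6) between -0.19 and 0.21, across 0, and the Notch2 start between -0.284 and -0.0183. The lone library of a group was then assumed to vary like the other pair. The causes of these shifts were not tested.

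Same-numbered libraries did not deviate together (r = -0.15 over all regions), so the numbers do not pair them. With the replicate block there were 5 higher and 6 lower receptor regions and 12228 and 10766 overall. With crossed pairs, chosen after seeing the data, there were 7 and 9, and 18210 and 16809. With 12340742 counts, Notch2_cKO replicate 2 limits the precision of weak regions.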
